A study of Mus musculus with 2 samples.

Results

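FoxO3 peaks along the nebulin gene, Neb, were described in the mouse line C2C12, whose myoblasts fuse into multinucleate myotubes after serum is reduced. The members were the myotube peaks whose summit lay between 51990079 and 52206953 on chromosome 2 of mm9, the span given for Neb. There were 181 such peaks among the 45457 of the myotube list (the rule gave the same 181 whether summits were counted from 0 or from 1). Members were chosen by summit position alone, and the span itself follows the peaks: its first base is the first base of the first peak and its last base is the last base of the last peak. The number and density of peaks in it are therefore what chose them, and are given as a description with no test. No mm9 annotation was used here, so the ends of the window were not compared with the ends of Neb, and peaks were not placed in exons or introns. In the RefSeq gene table, which is for a later build and was used for names only, the nearest protein-coding neighbours of Neb are Rif1 on the side of lower coordinates and Arl5a on the other. The transcripts Gm52510 and 4930573O16Rik overlap Neb there. Whether any member lies in those neighbours on mm9 was not examined.

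The study profiled FoxO3 by chromatin immunoprecipitation and sequencing (ChIP-seq) at 2 times: hour 72 in differentiation medium with horse serum, called the myotube sample, and hour -24, before that medium, called the myoblast sample. The same anti-Foxo3 antibody was used at both times, no allele, transgene or drug is named in the labels, and each time has 1 library. The source label of both libraries reads myoblasts, and the series text and the hour assign the later one to myotubes. Peak lists hold no expression, so the state of the cells could not be checked against markers. With 1 library per time, no value below carries a replicate error and no difference was tested. Peaks of 1 library are not replicates, and the intervals cover counting error only.

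Nebulin is a giant protein of skeletal muscle that runs along the actin thin filament of the sarcomere. It is built from many copies of a short actin-binding module, grouped into longer repeats that match troponin and tropomyosin along the filament, and its gene is split into a very large number of exons. It is made as myoblasts differentiate, and mutations of the human gene cause nemaline myopathy. FoxO3 belongs to the forkhead family of transcription factors, is kept out of the nucleus when insulin signalling is active, and is known in muscle for driving atrophy genes.

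Neb was a region of many modest peaks in myotubes and of no listed peak in myoblasts. The 181 members covered 44905 bp, or 20.7% of the 216.9 kb window, at a density of 8.35 peaks per 10 kb. They made up 4.82% of the 3756 myotube peaks of chromosome 2. Fold enrichment, the caller's linear ratio of reads at the summit over local background, had a median of 8.38 with quartiles of 7.12 and 9.67. The range was 3.22 to 29.26. The deposited −log10 q-value ran between 2.18 and 53.64 with a median of 6.99.

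Few reads stood behind a typical member. A fold and its p-value together fix a whole number of reads at the summit, here called the pileup, and one pileup was found for each of the 181 members. Its median was 15 reads, with quartiles of 13 and 18, the lowest at 9 and the highest at 57. The local background had a median of 1.64 reads. It was at the most frequent value of the list, 1.51 reads, in 60 members (33.1%). Most members thus rested on few reads over a background near that value.

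A fold of 8 was reached by 103 of the 181 members (56.9%, 95% Wilson interval 49.6% to 63.9%), close to the 58.3% of the whole myotube list. Higher folds were less frequent among the members. A fold of 10 was reached by 37 (20.4%, 15.2% to 26.9%), against 35.4% of the list. A fold of 15 was reached by 5 members (2.76%, 1.19% to 6.30%), against 12.8% of the list. A −log10 q-value of 10 or more was reached by 36 members (19.9%, 14.7% to 26.3%), against 41.4% of the list. The Neb peaks were thus like the list at modest fold and held a smaller share of strong peaks. This was not particular to Neb. In the 4 other dense windows described below, 17.2%, 35.6%, 15.3% and 22.9% of peaks reached a fold of 10. The window at 35.6% was close to the 35.4% of the list, and the others were below it. A −log10 q-value of 10 was reached by 15.2%, 27.4%, 14.3% and 12.5% of peaks in the 4 windows, all below the 41.4% of the list.

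The member of highest fold was also the last one. It lay at chr2:52206451-52206953, with a fold of 29.26 and 48 reads over a background of 1.64. Next was the peak at chr2:52177454-52177861, with a fold of 24.42 and 57 reads over 2.33. After it came the peak at chr2:52075560-52075957, 85.7 kb from the window start, with a fold of 18.18 and 47 reads over 2.59. At chr2:52070237-52070732 the fold was 15.85 from 25 reads. At chr2:52100117-52100300 it was 15.20 from 23 reads. The first 3 of these 5 peaks had 47 to 57 reads and the others 23 to 25.

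A pileup of 40 reads or more was found in 4 members (2.21%, 0.863% to 5.54%), against 8.14% of the list, and the next member below had 32 reads. These were the first 3 named above and the peak at chr2:52174489-52175010, which had 56 reads but a fold of 10.83. Its background of 5.17 reads was the highest of any member. It is 1 of 3 members with a background over 3 times the most frequent value (1.66% of members, 3.58% of the list). The remaining 2 were weak, at chr2:52011345-52011624 with a fold of 3.22 and at chr2:52189241-52189578 with a fold of 3.87. The lowest folds thus included sites of raised background, which lowers the fold by construction, since fold is pileup over background. The peaks at chr2:51992664-51992921 and chr2:52187208-52187329 shared a fold of 3.87 as well, each from 12 reads over 3.10.

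**Figure D1:**
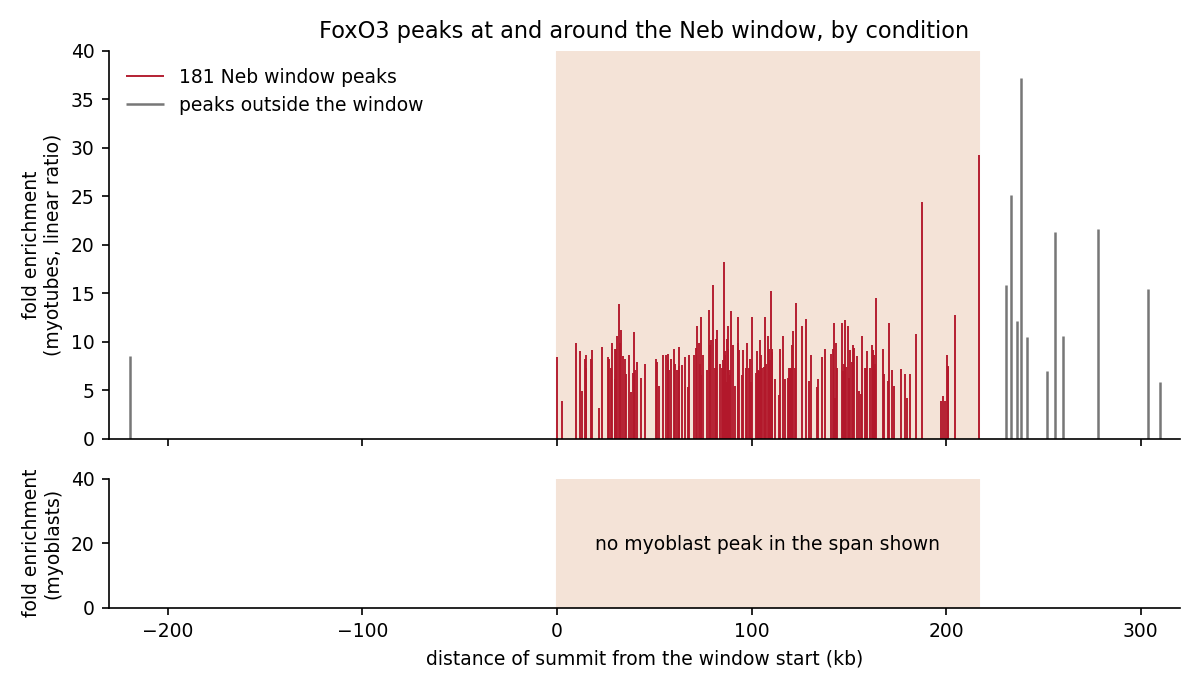
Each line is 1 peak, placed by the distance of its summit from the window start (kb) and drawn to its fold enrichment (linear ratio), for myotubes above and myoblasts below, with the window shaded. The quartiles of the 181 members are folds of 7.12 and 9.67, the highest members (24.42 and 29.26) lie near the higher-coordinate end, and the myoblast panel is empty.

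Peaks were unevenly spread along the window, whose ends were not compared with those of Neb. In bins of 20 kb counted from the window start, the densest stretch was 80 to 100 kb, with 29 peaks (95% Poisson interval 19.4 to 41.6) that covered 40.1% of the bin. The neighbouring bin from 100 to 120 kb held 25 peaks. The bin from 140 to 160 kb held 24, the bin from 60 to 80 kb held 21 and the bin from 20 to 40 kb held 20. The bins at 40 to 60 kb and at 120 to 140 kb, each between richer ones, held 13 peaks each. The window thinned out at its higher-coordinate end, with 6 peaks (2.20 to 13.1) from 180 to 200 kb and 5 in the last 16.9 kb.

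Fold changed little along the window where peaks were dense. The median fold was 9.02 in the densest bin, 8.12 in the next and 8.60 at 140 to 160 kb. It was 8.40 over the 104 members of the lower-coordinate side of the window's midpoint and 8.38 over the 77 members of the other side. The correlation of fold with position was Spearman rho -0.02 over the 181 members, which share 1 library. The bins at 0 to 20 kb and 40 to 60 kb held no member at a fold of 10. The bin from 180 to 200 kb had the lowest median fold, 5.57, and the highest median background, 3.36 reads, beside one of the strongest members. Background and fold are linked by construction, since fold is pileup over background (rho -0.45).

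**Figure D2:**
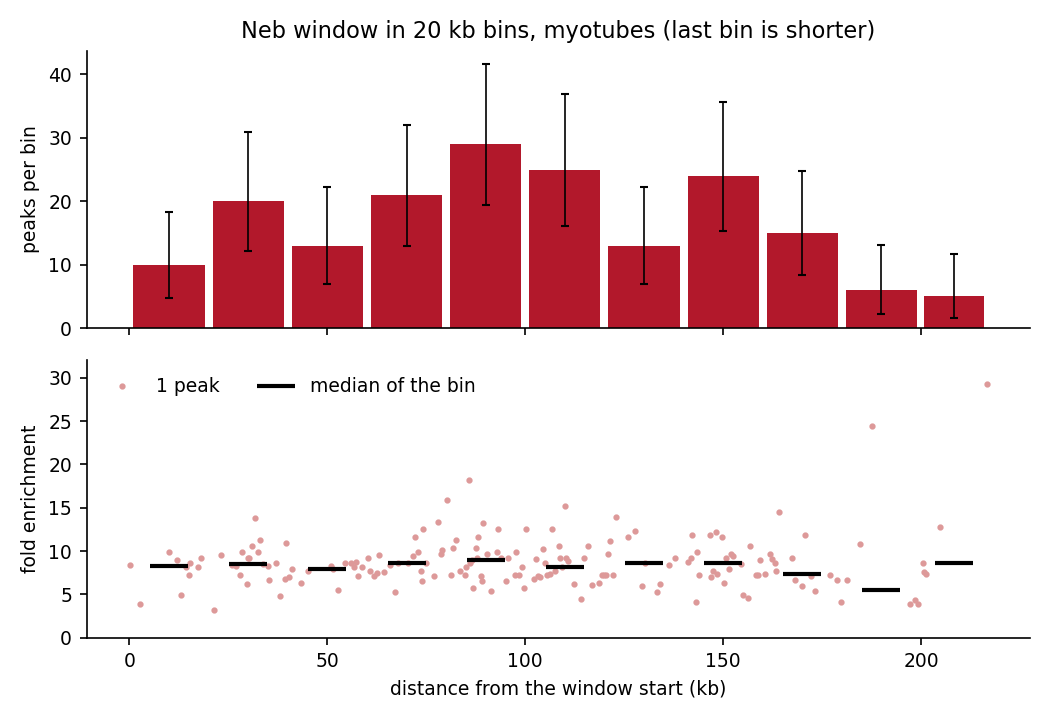
Upper panel, number of myotube peaks per 20 kb bin against distance from the window start (kb), with exact 95% Poisson intervals as bars; lower panel, fold enrichment of each peak as a dot and the median of each bin as a black dash. Counts rise to 29 at 80 to 100 kb and fall to 6 at 180 to 200 kb, while the bin medians stay between 5.57 and 9.02.

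Neighbouring summits were close. Of the 180 spacings between neighbouring summits, 111 (61.7%) were under 1 kb, and the median was 778.5 bp with quartiles of 488.75 and 1359.5. The shortest was 231 bp. Spacings under 500 bp numbered 46, those of 500 to 1000 bp 65, those of 1 to 2 kb 46, and those of 2 to 4 kb 19. The bare stretch between neighbouring peaks was at least 83 bp and had a median of 523.5 bp. That stretch was at the median longer than a member, whose median width was 211 bp. Nearby peaks can be joined by a caller, so the shortest distances, including the number under 500 bp, may be limited by it. This was not tested.

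The spacing was irregular. Its SD, 1402 bp, exceeded its mean, 1203 bp, a coefficient of variation of 1.16. These values include the 4 spacings of 4 kb or more, the longest 11931 bp, which raise the SD most. In the 4 other dense windows described below the coefficient of variation was 0.84, 0.98, 1.19 and 1.14, so the value was not particular to Neb. When the distances between all pairs of summits were counted in bins of 500 bp, each bin from 1 to 20 kb held between 72 and 97 pairs, with a median of 85. No distance in that range stood out as a repeat length at this bin width, and the first bin, under 500 bp, held 46 pairs. A short or long spacing was weakly followed by one of its kind (rho 0.19 between successive spacings). For fold and for width of neighbouring peaks rho was -0.01 each. These are descriptions along 1 window in 1 library.

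**Figure D3:**
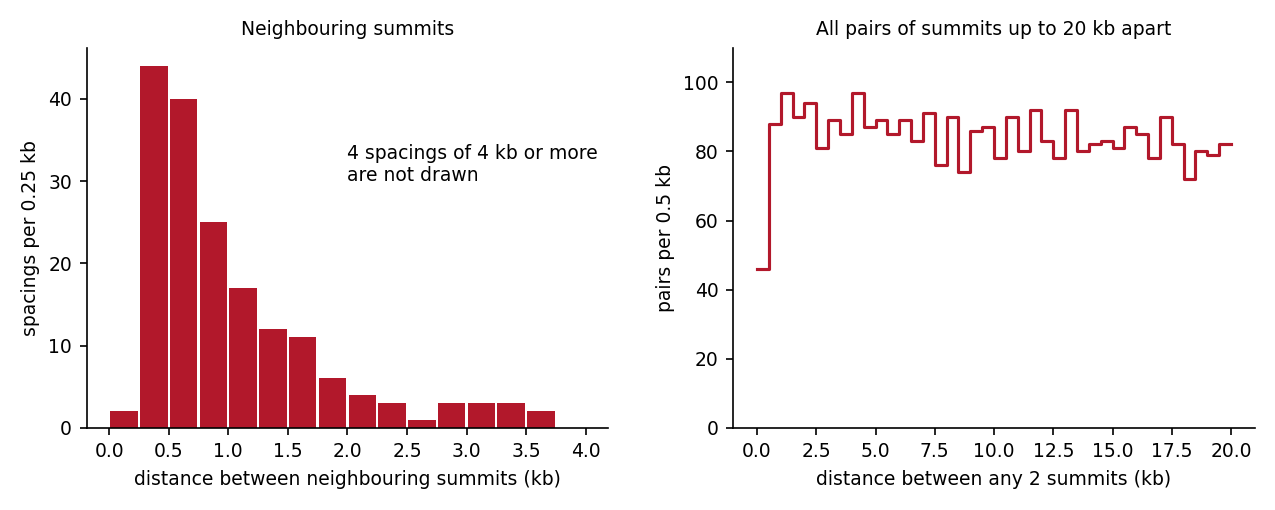
Left, number of spacings between neighbouring Neb summits per 0.25 kb; right, number of pairs of summits per 0.5 kb of distance, up to 20 kb. Most spacings are under 1 kb (111 of 180), and the pair counts stay between 72 and 97 from 1 to 20 kb, with no tall bin.

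The tightest run of 10 summits spanned 3739 bp, at chr2:52075560-52079894, and opens with the member of fold 18.18. Its summits were 266 to 630 bp apart. The 9 peaks after it, in order of position, had folds of 8.59, 9.02, 5.80, 10.31, 9.25, 11.60, 7.09, 6.61 and 13.22. Their widths were 198, 157, 122, 312, 231, 323, 219, 210 and 469 bp, and their pileups 13, 14, 12, 16, 14, 18, 11, 10 and 20 reads. Folds in this run neither rose nor fell steadily with position.

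The 3 longest gaps all lay towards the ends of the window. The longest, 11533 bp between peak edges, lay between the peak ending at 52194917 (fold 12.75, 21 reads) and the last member. The member of highest fold thus stood alone. The second, 9346 bp, followed the member next in fold, whose next neighbour was the weak peak at chr2:52187208-52187329. The next, 6956 bp, lay between the peak at chr2:51992664-51992921 and the peak at chr2:51999878-52000030 (fold 9.91, 15 reads). At the low end the first member, at chr2:51990079-51990211, had a fold of 8.38 and 13 reads.

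Outside the window the 2 sides differed. On the side of lower coordinates the next myotube peak lay 219.3 kb away, at chr2:51770594-51770760, with a fold of 8.51 and 22 reads. Gaps at least that long made up 4.36% of the 45436 gaps between neighbouring myotube peaks. The window's edges are those of a cluster of peaks joined at 12 kb, so a gap bordering it exceeds 12 kb by construction. The median of all gaps was 11295 bp, so many of them could not border such a cluster, and the 4.36% does not measure how unusual this gap is. On the other side the next peak lay 13575 bp away, at chr2:52220529-52220698, with a fold of 15.85 and 33 reads. The 100 kb beyond the window on that side held 11 peaks, at 1.10 per 10 kb, with a median fold of 15.40 and a median pileup of 33 reads. Of these 11, 9 reached a fold of 10. One exceeded every member, at chr2:52227871-52228477, with a fold of 37.14 and 82 reads. The median fold beyond the high end was above the 8.38 of the members. Their lower density is no separate result, because the span was drawn around closely placed peaks. Peaks were already fewer inside this end, at 3 per 10 kb from 180 to 200 kb and 2.96 from 200 to 216.9 kb. These bins held the highest folds of the window, 24.42 and 29.26, although their median folds were 5.57 and 8.61. The last member, at a fold of 29.26, was above 10 of the 11 outer peaks. The 100 kb distance was chosen after the values were seen.

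The median member was wider than the median myotube peak. Their widths had a median of 211 bp (95% interval from binomial ranks 191 to 237) with quartiles of 150 and 317, while the list as a whole had a median of 186 bp. A width of 300 bp or more was found in 52 members (28.7%, 22.6% to 35.7%), against 16.7% of the list. The smallest width in the list, 122 bp, was found in 21 members, and the other 160 (88.4%, 82.9% to 92.3%) were wider, as were 88.0% of the list. The members therefore differed from the list in the share of wide peaks and hardly in the share of the narrowest. In the 4 other dense windows described below, 18.7%, 39.0%, 24.5% and 18.75% of peaks were 300 bp or more. The 18.7% and 18.75% were close to the 16.7% of the list. The window at 24.5% had a median width of 182 bp, below the 186 bp of the list.

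Width and reads went together within Neb, with Spearman rho 0.44 between width and pileup over the 181 members and 0.50 over all other myotube peaks. The 21 narrowest members had a median fold of 7.23 and a median pileup of 12 reads, and none exceeded a fold of 9.91. The 52 members of 300 bp or more had a median fold of 9.32 and a median pileup of 18.5 reads. The widest was 785 bp, at chr2:52112974-52113758, with a fold of 13.95 and 22 reads. The second, at chr2:52083747-52084394, was 648 bp with a fold of 9.19 and 19 reads. The next, at chr2:52081174-52081802, was 629 bp wide but had a fold of 5.41 and 14 reads. This last peak was thus wide without many reads.

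Against isolated myotube peaks, those with no other summit within 12 kb (14006 peaks), the Neb members were wider and of slightly lower fold. The median width was 211 bp in Neb and 176 bp in isolated peaks, and the median fold 8.38 in Neb and 9.02 in isolated peaks. Isolated peaks weighted to the same pileups as the members had a median width of 153 bp and a median fold of 7.93. All outside peaks weighted in the same way had medians of 163 bp and 7.93. With the pileup held equal the members thus stayed wider, and the fold difference changed sign, to 0.45 in place of -0.64. At a given pileup a higher fold is a lower background, and the median background was 1.64 reads in Neb, 1.70 reads in the weighted isolated peaks and 1.77 reads in all weighted outside peaks. Nearby peaks can be joined by a caller, and the part of this in the widths was not tested.

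**Figure D4:**
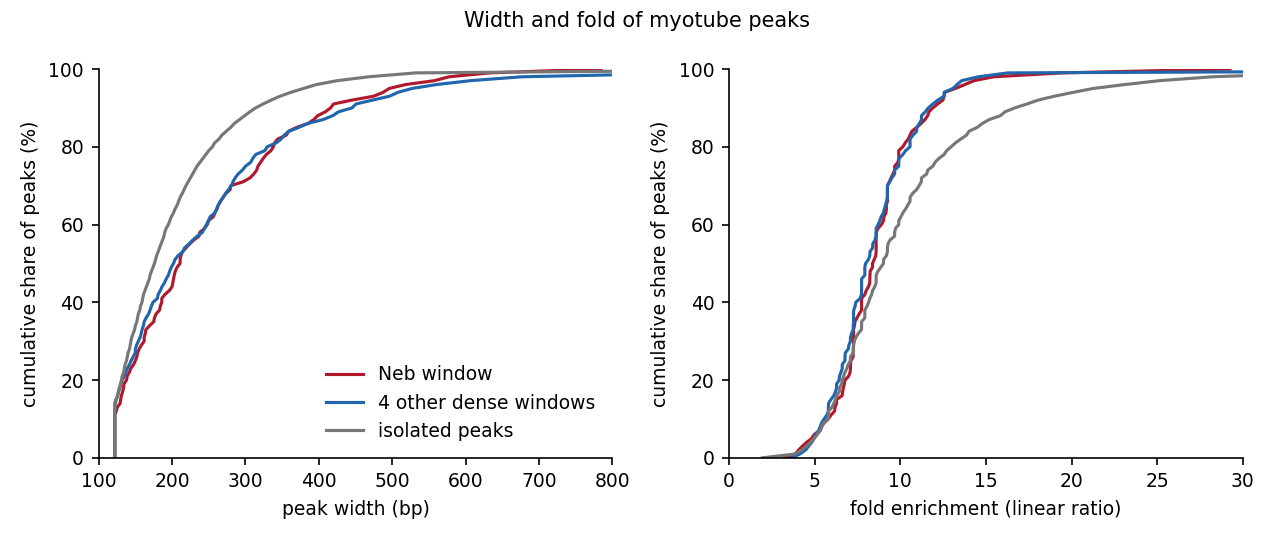
Cumulative share of peaks (%) by width (bp, left) and by fold enrichment (linear ratio, right) for the Neb window, for the 4 other windows with most peaks pooled, and for isolated myotube peaks. The Neb curve runs to the right of the isolated peaks in width and to their left at high fold, and lies close to that of the 4 other windows.

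Neb was set beside the 4 other windows with most peaks when peaks within 12 kb are joined, all from the same library. In order of peak number these were chromosome 2 from 76539614 to 76822801 (198 peaks), chromosome 4 from 32743885 to 32865054 (146), chromosome 4 from 123017557 to 123193903 (98) and chromosome 11 from 23264317 to 23405108 (96). Neb's 8.35 peaks per 10 kb lay below the 12.05 of the first chromosome 4 window and above the 6.99, 5.56 and 6.82 of the others. Median spacing was 778.5 bp in Neb, 623 bp in the first chromosome 4 window, and 1171, 1118 and 967 bp in the others. Summits were thus closest together in that chromosome 4 window and next closest in Neb. The median width was 211 bp in Neb and 195, 263.5, 182 and 189.5 bp in the 4 windows in the order given. The median fold was 8.38 in Neb and 7.84, 9.02, 7.51 and 8.38 in the 4 windows. Neb was second of the 5 in density and width, and shared second place in fold. Neb minus the median density of the 4 windows was 1.44 peaks per 10 kb. When Neb and the others were all joined at 5 kb, the largest block of Neb was chr2:52040723-52177861, with 139 peaks at 10.14 per 10 kb, and the difference was 0.32. The 4 other windows with most peaks were then partly different ones, at 12.67, 8.30, 9.44 and 10.19 per 10 kb. With only the other windows rejoined, which leaves Neb its long gaps, the difference was -1.47.

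The strongest single peaks differed more than the medians. The highest fold was 29.26 in Neb and 17.07, 17.18, 68.87 and 15.54 in the 4 windows. Members at a fold of 20 or more numbered 2 in Neb, 2 in the second chromosome 4 window and 0 in each of the other 3 windows, where 5.88% of the whole list reached that fold. Covered length was 20.7% of the window in Neb and between 12.3% and 38.8% in the 4 windows. Among all 107 windows of 20 or more peaks, Neb was second in number of peaks and in length, 22nd from the highest in density, 24th in median width, 20th in median fold and 36th in the share at a fold of 10. Neb was at the top of these windows in none of the measures taken.

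**Figure D5:**
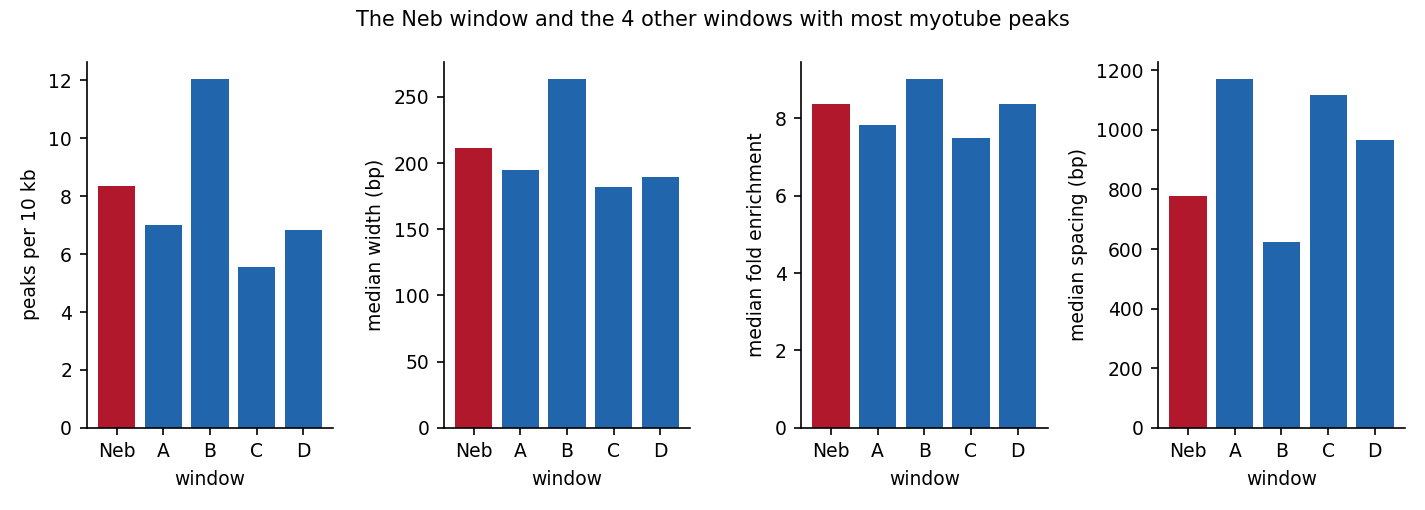
Peaks per 10 kb, median width (bp), median fold enrichment and median spacing of neighbouring summits (bp) for Neb and for windows A (chromosome 2 from 76539614), B (chromosome 4 from 32743885), C (chromosome 4 from 123017557) and D (chromosome 11 from 23264317). Neb lies between B and the other 3 in density (8.35 against 12.05 in B) and in spacing (778.5 against 623 bp in B).

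In the myoblast list no peak fell in the Neb window. That is 0 of 501 myoblast peaks, which allows a share of up to 0.599% of the list (3 counts). The myotube list held 181 of its 45457 peaks there, a share below that limit, so the 0 cannot show a difference in share. None of the 181 members overlapped a myoblast peak (0%, Wilson interval up to 2.08%), where 0.224% of all myotube peaks did. The nearest myoblast peaks were far away, at chr2:46040649-46040724 on the lower side (5.95 Mb, fold 23.06, 11 reads) and at chr2:60587127-60587202 on the higher side (8.38 Mb, fold 14.67, 8 reads). Chromosome 2 held 34 myoblast peaks in all.

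The few reads behind myoblast peaks limit this comparison. Its most frequent background was 0.44 reads, and at that background its lowest listed fold was 13.52, from 6 reads. In myotubes 8 of the 181 members (4.42%, 2.26% to 8.48%) had a fold of 13.52 or more, against 17.0% of the myotube list. The other members had folds below any that the myoblast list shows at its usual background. Lower FoxO3 occupancy of Neb in myoblasts and a weaker or shallower myoblast library cannot be told apart with 1 library per time.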

How the data were processed

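FoxO3 ChIP-seq peak lists of 1 myotube and 1 myoblast library were used as the authors deposited them. Per the submitters' processing notes, peaks were on mm9 and MACS2 2.1.0 was used. For the aligner, control, duplicates and threshold, nothing is stated in the labels, and read depth is unknown. Per the file headers the layout is narrowPeak. The authors deposited a fold enrichment (a ratio), −log10 p-value and −log10 q-value, a score (10 times the −log10 q-value) and a summit offset for each peak. The fold, p and q values are the authors' own.

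The pileup is the whole number of reads n for which n over background gives the deposited fold and the Poisson probability of exceeding n gives the p-value, within 0.02 on the log10 scale beyond rounding. It was found for 45457 of 45457 myotube and 501 of 501 myoblast peaks. The recovery was also run on simulated peaks made with the same formulas. That checks the calculation and cannot show that the caller's values follow those formulas. Positions are 1-based. Medians, quartiles, Wilson and exact Poisson intervals were computed with scipy 1.17.1, pandas 2.3.3 and numpy 2.4.6 under Python 3.11.15.

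The window and lists were chosen with earlier results of these data known. Named peaks are the 5 of highest fold, 3 widest, 3 lowest with ties, those at the ends, beside the 3 longest gaps and in the tightest run of 10, and the nearest peaks outside. The cuts at 40 reads and 300 bp were set after the values were seen. Exons, sequences and protein repeats were not analysed here.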

Additional observations from a re-analysis of the deposited data

How the results depend on the processing

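Counts of peaks were judged by a factor of 1.5 and all other values by the 95% interval of the reported one. Of 45 alternative values, 27 stayed within these limits, 16 moved and 2 changed direction. A −log10 q-value of at least 10 left 36 peaks in the window, with a median width of 336 bp, fold of 11.90, pileup of 21 reads, spacing of 2818 bp and 88.9% at a fold of 10. At 5 or more the median fold was 9.02, the pileup 16 reads and the spacing 954 bp. These filters keep stronger peaks by construction. The edge to edge gap had a median of 523.5 bp. The sparsest 50 kb bin held 6.60 peaks per 10 kb, against 3 in the sparsest full 20 kb bin. The share of members was 56.9% at a fold of 8 and 2.76% at 15. The fold difference from isolated peaks (-0.64) was -0.21 against all other myotube peaks and reversed to 0.45 against outside peaks of the same pileup, where only background can differ. With only the comparison windows joined at 5 kb, which shortens them while Neb keeps its long gaps, Neb minus their median was -1.47 peaks per 10 kb (1.44 as reported), and the spacing difference was -18.75 bp (-264 bp as reported). With Neb rejoined in the same way, an alternative chosen after seeing the data, these were 0.32 peaks per 10 kb and -89.75 bp. Joining at 5 kb also changed which windows were compared, with a chromosome X window in place of the second chromosome 4 window. Neb's 10.14 peaks per 10 kb then lay below 12.67 and 10.19 and above 9.44 and 8.30. Its place in density thus depended on how windows were joined. The count of 0 myoblast peaks held with any overlap and with the window widened by 50 or 500 kb. No paired analysis was possible because each time has 1 sample.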
